A study of Mus musculus with 23 samples.

Results

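Livers of obese mice that had received a glucagon receptor antibody were compared with livers of lean mice that had received a control antibody, to find which liver transcripts remained away from the lean control level once the receptor was blocked on a high-fat diet (HFD). The comparison uses 11 of the 23 RNA-seq libraries of the series, all from livers of male C57BL/6J mice kept on chow or on HFD for 4 months and given 10 mg/kg of antibody for 3 weeks. The treated obese group holds the 6 libraries numbered 18 to 23 in the labels, from HFD mice given REGN1193, which blocks GCGR, the receptor of glucagon. The untreated lean group holds the 5 libraries numbered 1 to 5, from chow mice given REGN496, which is taken here as the isotype control because the series design names an isotype control without a code and the labels give only these antibodies. Both diet and antibody differ between these groups, so a difference between them cannot be assigned to either alone. The other groups, 6 libraries from HFD mice given REGN496 (obese controls) and 6 from chow mice given REGN1193 (treated lean), are used for values set beside the comparison. They also enter the estimate of spread, because 1 fit of all 23 libraries served every comparison. The labels do not say that each library is a separate mouse, so p-values here measure the spread between these libraries. Genes with at least 0.5 RPKM (reads scaled to gene length and to library size) in at least 5 of the 23 libraries were tested, which gave 11939 of the 24475 genes in the table.

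Glucagon is the pancreatic hormone of fasting. Through GCGR, a G protein-coupled receptor carried mainly by hepatocytes, it raises cyclic AMP and drives glucose output, amino acid breakdown and urea formation, and it restrains fat synthesis. Long-term high-fat feeding fills the liver with triglyceride, raises insulin and weakens the sex difference in liver transcripts that growth hormone pulses maintain. In a bulk tissue library a lower value of a transcript can come from fewer cells of a type or from less RNA per cell, and these cannot be told apart.

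The 11 libraries were of similar depth and all looked like liver. They summed to between 594026 and 692295 RPKM and held 15365 to 15913 genes above 0. The deposited table holds no read counts; steps in its low values gave relative depths of 0.865 to 1.15 in the lean and 0.941 to 1.13 in the treated obese libraries, although 66.0% of those low values lay within 0.1 of a whole multiple, so no count could be recovered. The 12 hepatocyte markers (among them albumin, apolipoproteins and Hnf4a) summed to 65860 to 81183 RPKM in lean and 66127 to 70985 RPKM in treated obese libraries. Libraries 19 and 20 correlated least with the rest of the treated obese group, at a mean r of 0.980 and 0.979 against 0.984 to 0.988 in the other 4. Some results are therefore also given without them, though not every call or count that this changes. Signs of RNA quality differed in part. Of the 13 mitochondrially encoded genes 4 were higher (1 to 9 when each library was left out), and their sums ran from 81823 to 120249 RPKM in lean and from 93847 to 162848 RPKM in treated obese libraries. Of 19 tested immediate early and heat shock genes 3 were higher (15.8%) and 1 lower (5.26%), none of them called without libraries 19 and 20. Over all genes tested 12.8% were higher and 10.7% lower, so the count of higher genes in this list is near that share. The mitochondrial list had 30.8% higher. The immediate early and heat shock genes had a median sum of 651 RPKM in lean and 839 RPKM in treated obese libraries. Their part in the results was not tested. The target itself was measured first: Gcgr measured 117, 106, 102, 102 and 104.9 RPKM in lean libraries 1 to 5, against a lowest of 115, a median of 116 and a highest of 122 RPKM with antibody on HFD. For Gcgr the groups overlapped. The antibody acts on the receptor protein, so this transcript does not check the labels. The fit gave 0.14 log2 units (SE 0.05, adjusted p = 0.0371), a call lost without library 2, 3, 4, 5, 18 or 22 and after either rescaling of the libraries, with adjusted p between 0.0147 and 0.268 over the alternatives. The Gcgr call was also lost without libraries 19 and 20 together.

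In the treated obese livers 2809 of the tested genes (23.5%) were called away from the lean level in either direction. Differences are given as treated obese minus lean in mean log2(RPKM + 1), which understates changes of genes with low levels. At an adjusted p under 0.05 (limma, Benjamini-Hochberg over all genes tested), 1530 genes (12.8% of those tested) were higher and 1279 (10.7%) were lower. Of these, 132 were at least 2-fold higher (1.11%) and 84 at least 2-fold lower (0.704%). Libraries of both groups did not overlap at all for 753 genes that were higher (6.31%) and 629 that were lower (5.27%). Counts within gene lists below are to be read beside these shares of all genes tested. For 9864 genes (82.6%) the 95% confidence interval of the difference lay within 1.5-fold of RPKM + 1 in either direction. For genes with low levels this does not bound the fold in RPKM. A gene can be both called and within that bound, as Asgr1 was (0.41 log2 units, adjusted p = 4.12e-05). Genes neither called nor within that bound are left without a statement. The balance of higher and lower genes turned with the scaling: with upper-quartile scaling 1207 were higher and 2021 lower.

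A second comparison asked which of these differences appear again with the antibody on the other diet. It sets the obese controls against the treated lean livers and shares no library with the first. Both take the spread of each gene from 1 fit of all 23 libraries, so their calls are not independent. With each comparison fitted on its own groups, 1250 genes were called the same way in both and 68 the opposite way. In it 1611 genes (13.5%) were higher and 3271 (27.4%) lower, a split that became 2387 and 2294 with median-ratio scaling. Genes called the same way in both numbered 1545 (12.9% of those tested), which is 55.0% of the genes called in the first comparison and 31.6% of those called in the second. Of them, 649 were higher and 896 lower in the obese livers of both. Genes called in opposite directions numbered 96 (0.804%), which is 3.42% and 1.97% of the respective lists: 43 were higher and 53 lower in the treated obese livers.

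**Figure D1:**
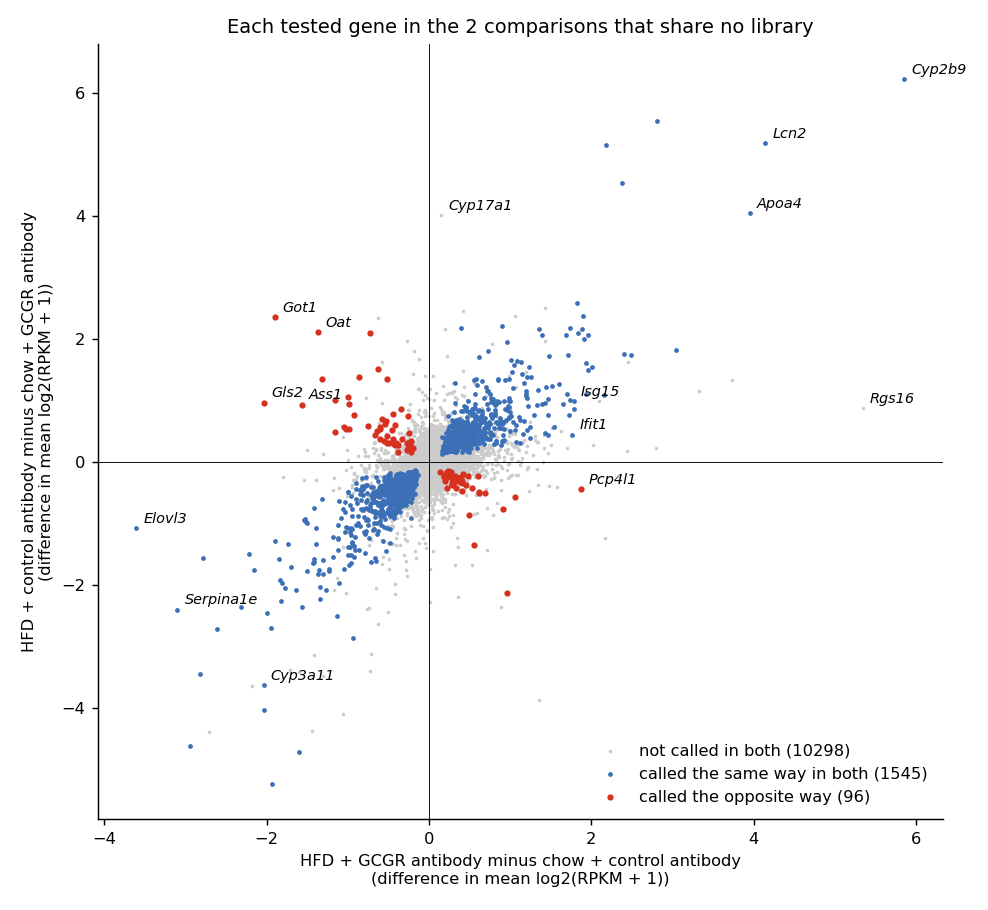
Each point is 1 of the 11939 genes tested, at its difference in mean log2(RPKM + 1) between treated obese and untreated lean livers (x axis) and between untreated obese and treated lean livers (y axis). The 1545 blue genes were called the same way in both and include Cyp2b9, Apoa4 and Elovl3, and the 96 red genes were called in opposite directions and include Got1, Gls2, Oat and Ass1.

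The genes furthest above lean included genes of lipid and acute-phase biology and a cytochrome P450. Levels of Cyp2b9 were 0.215, 0, 0.0411, 0.104 and 0.401 RPKM in the lean livers and ran from 3.11 through a median of 136 to 187 RPKM in the treated obese livers. Cyp2b9 was higher in each treated obese library than in any lean one. Cyp2b9 encodes a P450 that is female-biased in mouse liver, and the difference was 5.86 log2 units (SE 0.64, adjusted p = 9.88e-07). Library 23 held the lowest treated value, and since lean levels were near 0 the size of this difference depends on the pseudocount (8.20 log2 units at a pseudocount of 0.1). Apoa4 was at 30.9, 37.4, 40.1, 40.4 and 41.2 RPKM in the 5 lean libraries and at 196, 607 and 1569.8 RPKM (lowest, median and highest) in the 6 treated obese libraries. The lean Apoa4 values all lay below the treated obese ones. Apoa4 encodes an apolipoprotein of triglyceride-rich particles and differed by 3.95 log2 units (SE 0.51, adjusted p = 8e-06). Lcn2 measured 1.58, 2.84, 53.1, 4.26 and 10.5 RPKM in lean libraries 1 to 5, against a lowest of 66.8, a median of 107 and a highest of 514 RPKM with antibody on HFD. For Lcn2 each treated obese library exceeded every lean one. Lcn2 encodes lipocalin 2, an acute-phase protein that binds iron carriers, and differed by 4.14 log2 units (SE 0.75, adjusted p = 0.000383). Levels of Rgs16 were 5.05, 0.374, 1.5, 2.21 and 0.747 RPKM in the lean livers and ran from 41.8 through a median of 112 to 257 RPKM in the treated obese livers. Treated obese Rgs16 values did not overlap the lean ones and were the higher. Rgs16 encodes a GTPase-activating protein that shortens G protein signalling, and its difference was 5.35 log2 units (SE 0.69, adjusted p = 8.24e-06). Cfd was at 0.702, 1.97, 0.929, 2.36 and 1.17 RPKM in the 5 lean libraries and at 12.2, 24.6 and 30.9 RPKM (lowest, median and highest) in the 6 treated obese libraries. Cfd was higher in each treated obese library than in any lean one. Cfd encodes complement factor D (adipsin), best known from fat cells, and differed by 3.32 log2 units (SE 0.57, adjusted p = 0.000204).

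In the obese controls the same 5 genes were also above lean, by 6.11 log2 units (SE 0.64, adjusted p = 6.77e-07) for Cyp2b9, 4.30 log2 units (SE 0.51, adjusted p = 3.47e-06) for Apoa4, 4.02 log2 units (SE 0.75, adjusted p = 0.00053) for Lcn2, 3.19 log2 units (SE 0.69, adjusted p = 0.00173) for Rgs16 and 3.31 log2 units (SE 0.57, adjusted p = 0.000236) for Cfd. These values share the lean libraries with the main comparison and are given side by side only. The direct comparison of treated obese with obese control livers, called the antibody difference on HFD here, tests whether those distances differ. Of these 5, it called Rgs16 alone, which was higher with the antibody by 2.15 log2 units (SE 0.66, adjusted p = 0.0473). For Cyp2b9 it gave -0.26 log2 units (SE 0.61, adjusted p = 0.834) and for Apoa4 -0.35 log2 units (SE 0.48, adjusted p = 0.69), which does not show equal levels. The other genes among the 10 largest increases were Hamp2 (3.05 log2 units), Orm3 (2.79 log2 units), Rad51b (2.49 log2 units), Ly6d (2.46 log2 units) and Ifi27l2b (2.41 log2 units). Hamp2 belongs to the hepcidin family and Orm3 to the orosomucoids, both with near-identical relatives among which short reads may be divided. The call of Ly6d was lost without libraries 19 and 20, with an adjusted p of 0.111.

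**Figure D2:**
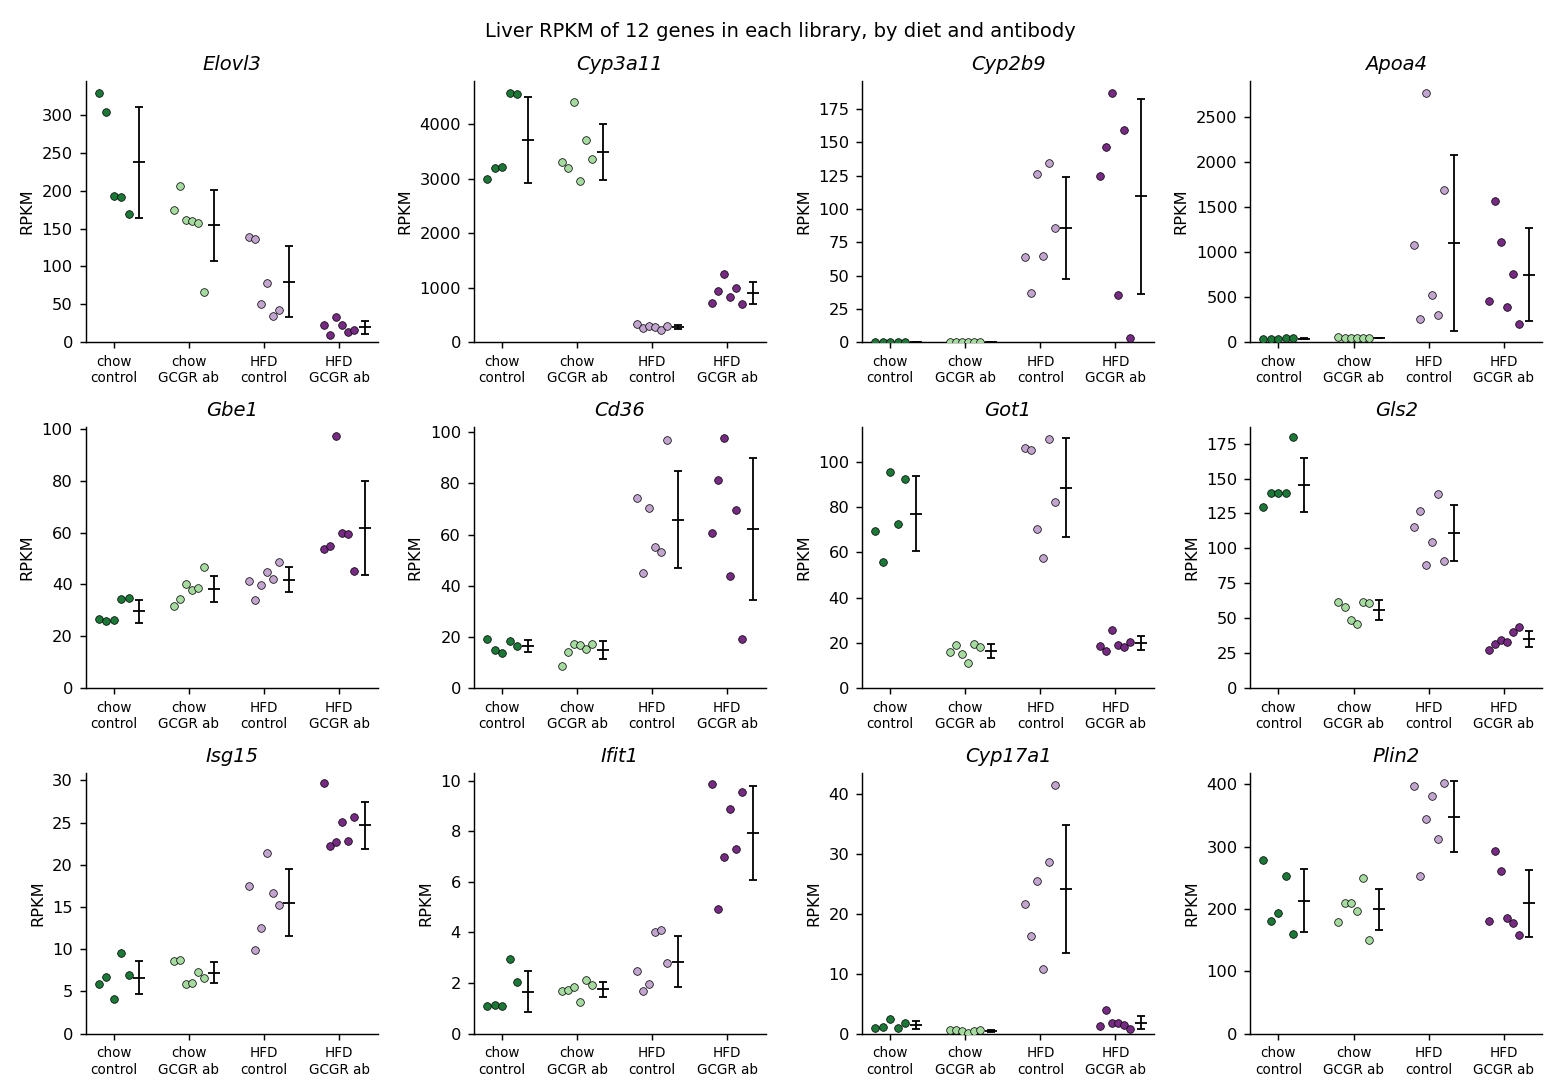
RPKM of 12 genes in each of the 23 libraries, with points for libraries and the mean and SD of each group to the right of its points; every axis starts at 0. Elovl3, Cyp3a11, Got1 and Gls2 lie below lean control in the HFD livers with GCGR antibody, Gbe1, Isg15 and Ifit1 lie above it in all 6, and Cyp17a1 and Plin2 overlap it.

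The genes furthest below lean included enzymes of fatty acid elongation, conjugation and hydroxylation. Elovl3 measured 329, 305, 193, 192 and 169.8 RPKM in lean libraries 1 to 5, against a lowest of 9.1, a median of 19 and a highest of 33.6 RPKM with antibody on HFD. The lean Elovl3 values all lay above the treated obese ones. Elovl3 encodes an elongase of very long fatty acids with male-biased liver expression, and it differed by -3.61 log2 units (SE 0.36, adjusted p = 3.09e-07). The obese controls differed from lean by -1.72 log2 units (SE 0.36, adjusted p = 0.00147), and Elovl3 was lower still with the antibody on HFD, by -1.89 log2 units (SE 0.35, adjusted p = 0.00133). Levels of Csad were 203, 203, 194, 178 and 117 RPKM in the lean livers and ran from 18.9 through a median of 29.1 to 36.6 RPKM in the treated obese livers. For Csad each treated obese library lay under every lean one. Csad encodes cysteine sulfinic acid decarboxylase of taurine synthesis, and it differed by -2.61 log2 units (SE 0.25, adjusted p = 1.27e-07). Ugt1a9 was at 58.9, 37.9, 35.5, 58.3 and 54.7 RPKM in the 5 lean libraries and at 4.63, 5.32 and 9.23 RPKM (lowest, median and highest) in the 6 treated obese libraries. Treated obese Ugt1a9 values did not overlap the lean ones and were the lower. Ugt1a9 encodes a glucuronosyltransferase and shares exons with its neighbours in the Ugt1a locus, so its reads may be divided among them; it differed by -2.78 log2 units (SE 0.25, adjusted p = 1.02e-07). Cyp2c55 measured 5.68, 8.53, 6.05, 10.9 and 10.7 RPKM in lean libraries 1 to 5, against a lowest of 0.739, a median of 1.04 and a highest of 1.38 RPKM with antibody on HFD. Cyp2c55 was lower in each treated obese library than in any lean one. This P450 differed by -2.16 log2 units (SE 0.19, adjusted p = 7.4e-08). Levels of Cyp26a1 were 10.1, 12.7, 29.3, 6.67 and 20.8 RPKM in the lean livers and ran from 0.862 through a median of 2.25 to 2.94 RPKM in the treated obese livers. The lean Cyp26a1 values all lay above the treated obese ones. Cyp26a1 encodes the main retinoic acid hydroxylase and differed by -2.31 log2 units (SE 0.46, adjusted p = 0.000952). Gsta2 was at 57.2, 45.2, 44.6, 60 and 68.7 RPKM in the 5 lean libraries and at 4.96, 8.62 and 31.4 RPKM (lowest, median and highest) in the 6 treated obese libraries. For Gsta2 each treated obese library lay under every lean one. Gsta2, a glutathione transferase, differed by -2.22 log2 units (SE 0.35, adjusted p = 8.73e-05).

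Some male-biased transcripts varied widely among the treated obese livers. Serpina1e measured 6887, 9571, 7575, 6106 and 6709 RPKM in lean libraries 1 to 5, against a lowest of 60.4, a median of 1627 and a highest of 5743 RPKM with antibody on HFD. Treated obese Serpina1e values did not overlap the lean ones and were the lower. Serpina1e, an alpha-1 antitrypsin paralog with near-identical copies, differed by -3.10 log2 units (SE 0.81, adjusted p = 0.00797), a call lost when only the 2 groups were fitted. Levels of Cyp4a12b were 45.6, 57.9, 35.6, 57.5 and 44.2 RPKM in the lean livers and ran from 0.376 through a median of 6.32 to 27.8 RPKM in the treated obese livers. Cyp4a12b was lower in each treated obese library than in any lean one. Cyp4a12b, a fatty acid hydroxylase with a near-identical neighbour, differed by -2.82 log2 units (SE 0.58, adjusted p = 0.00134), and by -1.84 without libraries 19 and 20. Hsd3b5 was at 149, 165, 93.3, 121 and 86.3 RPKM in the 5 lean libraries and at 0.50, 31.9 and 138 RPKM (lowest, median and highest) in the 6 treated obese libraries. For Hsd3b5 the groups overlapped. Hsd3b5, a steroid reductase, differed by -2.94 log2 units (SE 1.03, adjusted p = 0.0422), but the call was lost without library 1, 2, 3, 4, 5, 19, 20 or 22 and with a pseudocount of 0.1, with adjusted p up to 0.303. The Hsd3b5 call was also lost without libraries 19 and 20 together. Of the 28 tested genes in the list of male-biased, growth hormone dependent genes, 14 were lower and 0 higher by limma, with 1 higher at an unadjusted p under 0.05 and 0 by the exact rank-sum test. The median difference of the list was -1.25, against 0.01 over all genes tested. Ugt2b38 had the lowest adjusted p of the list, at -1.99 log2 units (limma, adjusted p = 5.3e-08), and Ugt2b1 was at -1.90 log2 units (adjusted p = 3.46e-07). Without libraries 19 and 20, 10 were lower and 2 higher. In the obese controls against lean, 20 of the 28 were lower (background over all genes 18.3% lower and 11.6% higher). Among 23 tested female-biased genes, 11 were higher and 6 lower, so the list did not move as 1 block. Igfbp2 measured 382, 241, 285, 313 and 216 RPKM in lean libraries 1 to 5, against a lowest of 78.8, a median of 109 and a highest of 147 RPKM with antibody on HFD. For Igfbp2 each treated obese library lay under every lean one. Igfbp2, a secreted binding protein of insulin-like growth factors, differed by -1.37 log2 units (SE 0.29, adjusted p = 0.00154).

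**Figure D3:**
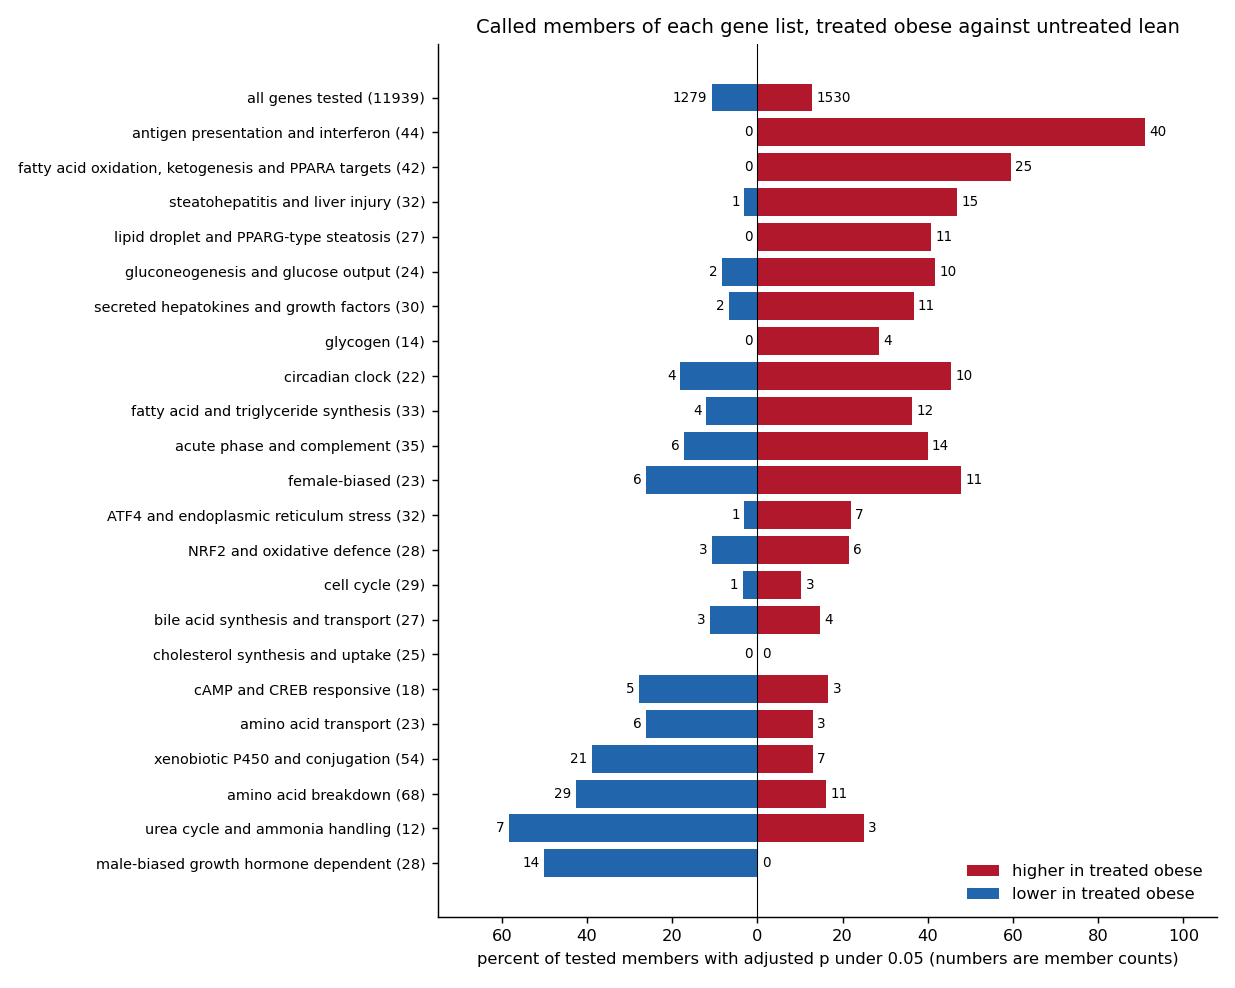
Percent of the tested members of each of the 22 function lists that were called higher (red, right) or lower (blue, left) in treated obese against untreated lean livers, with the number of tested members in brackets, the called members as numbers at the bars and all 11939 genes in the top bar. The interferon list has 40 of 44 members higher, and the male-biased list has 14 of 28 lower.

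Several enzymes that take apart amino acids or make urea, which glucagon is known to induce, were below lean in the treated obese livers. Levels of Got1 were 69.4, 55.8, 95.7, 72.6 and 92.2 RPKM in the lean livers and ran from 16.6 through a median of 18.9 to 25.5 RPKM in the treated obese livers. Treated obese Got1 values did not overlap the lean ones and were the lower. Got1 encodes cytosolic aspartate aminotransferase, the enzyme measured in blood as AST. The difference was -1.90 log2 units (SE 0.17, adjusted p = 7.93e-08). Gls2 was at 129.9, 139, 139.8, 139.6 and 179 RPKM in the 5 lean libraries and at 27.3, 33.6 and 43.9 RPKM (lowest, median and highest) in the 6 treated obese libraries. Gls2 was lower in each treated obese library than in any lean one. Gls2 encodes the liver glutaminase, and it differed by -2.03 log2 units (SE 0.13, adjusted p = 4.35e-10). Ass1 measured 1601, 1820.0, 1612, 1856 and 2500.5 RPKM in lean libraries 1 to 5, against a lowest of 569, a median of 624.6 and a highest of 682 RPKM with antibody on HFD. The lean Ass1 values all lay above the treated obese ones. Ass1 encodes argininosuccinate synthase of the urea cycle and differed by -1.57 log2 units (SE 0.15, adjusted p = 1.3e-07). Levels of Oat were 339, 318, 419, 399.7 and 421 RPKM in the lean livers and ran from 99.1 through a median of 146 to 206 RPKM in the treated obese livers. For Oat each treated obese library lay under every lean one. Oat, ornithine aminotransferase, differed by -1.36 log2 units (SE 0.19, adjusted p = 2.25e-05). Cbs was at 195, 189.8, 195, 176 and 184 RPKM in the 5 lean libraries and at 77, 95.7 and 114 RPKM (lowest, median and highest) in the 6 treated obese libraries. Treated obese Cbs values did not overlap the lean ones and were the lower. Cbs encodes cystathionine beta-synthase of the transsulfuration pathway, and it differed by -0.98 log2 units (SE 0.09, adjusted p = 7.74e-08).

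In the comparison that shares no library, where the antibody was on chow, these 5 genes were called the opposite way, higher in the untreated obese livers. The differences there were 2.35 log2 units (SE 0.16, adjusted p = 6.67e-10) for Got1, 0.96 log2 units (SE 0.12, adjusted p = 2.87e-06) for Gls2, 0.93 log2 units (SE 0.14, adjusted p = 2.87e-05) for Ass1, 2.11 log2 units (SE 0.18, adjusted p = 1.75e-08) for Oat and 0.54 log2 units (SE 0.08, adjusted p = 3.61e-05) for Cbs. Genes were named in part for being among the 5 largest opposite calls, Ass1 for example, so these opposite calls are no separate test. For these 5 genes the group given REGN1193 was the lower one in both comparisons. Pcp4l1 (PCP4-like 1) was the gene among the 5 largest opposite calls that ran the other way. Pcp4l1 measured 2.95, 2.82, 2.45, 3.15 and 1.72 RPKM in lean libraries 1 to 5, against a lowest of 9.61, a median of 11.9 and a highest of 16.3 RPKM with antibody on HFD. Pcp4l1 was higher in each treated obese library than in any lean one. It differed by 1.88 log2 units (SE 0.18, adjusted p = 1.77e-07), and by -0.44 log2 units (SE 0.17, adjusted p = 0.0478) in the second comparison. The obese controls differed from lean by 0.19 log2 units (SE 0.17, adjusted p = 0.432) for Got1 and 0.36 log2 units (SE 0.19, adjusted p = 0.162) for Oat, neither of which passed the test. Ass1 went the other way in the obese controls, by -0.37 log2 units (SE 0.15, adjusted p = 0.0642), and did not pass either. Gls2 ran from 88.1 RPKM in library 14 to 138.6 RPKM in library 16 of the obese controls, in part below every lean value.

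Of the 68 tested amino acid breakdown genes, 29 were lower and 11 higher (median -0.12), and for 22 the treated obese libraries all lay below the lean ones. In the obese controls 14 were lower and 13 higher. The antibody on HFD lowered 17 and raised 1 (background 2.12% lower and 5.33% higher). Of the 12 tested urea cycle and ammonia genes, 7 were lower and 3 higher (median -0.38), against 1 lower and 3 higher in the obese controls. Glul went the other way from Gls2. Levels of Glul were 301, 284, 326, 239 and 306 RPKM in the lean livers and ran from 512 through a median of 713 to 774 RPKM in the treated obese livers. The lean Glul values all lay below the treated obese ones. Glul encodes glutamine synthetase, which fixes ammonia into glutamine, and differed by 1.21 log2 units (SE 0.10, adjusted p = 2.34e-08). Both obese groups were above lean for Glul, the controls by 0.73 log2 units (SE 0.10, adjusted p = 1.95e-05), and the antibody on HFD differed from them by 0.48 log2 units (SE 0.09, adjusted p = 0.00275). Of 23 amino acid transport genes, 6 were lower and 3 higher. The share of higher ones was near the 12.8% over all genes tested, and that of lower ones was above the 10.7%. In the obese controls 5 of these transport genes were already lower and 2 higher, and the antibody on HFD lowered 5 and raised 3. Slc6a13 was at 92.3, 92.4, 94.3, 99.6 and 101 RPKM in the 5 lean libraries and at 60.8, 66.1 and 77.9 RPKM (lowest, median and highest) in the 6 treated obese libraries. For Slc6a13 each treated obese library lay under every lean one. Slc6a13, a taurine and GABA carrier, differed by -0.49 log2 units (SE 0.06, adjusted p = 4.39e-06). Among 18 tested cAMP and CREB responsive genes, 5 were lower (27.8%) and 3 higher (16.7%), and 4 were lower and 1 higher without libraries 19 and 20. Crem measured 10.1, 9.1, 8.12, 8.4 and 7.79 RPKM in lean libraries 1 to 5, against a lowest of 4.66, a median of 5.13 and a highest of 5.77 RPKM with antibody on HFD. Treated obese Crem values did not overlap the lean ones and were the lower. Crem encodes a cAMP-responsive element modulator whose own transcripts respond to cAMP, and it differed by -0.65 log2 units (SE 0.10, adjusted p = 5.78e-05). The cAMP response element TGACGTCA, searched on both strands, was in the RefSeq promoter windows (250 bases before to 50 after a start) of 2 of 15 list members (13.3%) and of 2.03% of all genes with a window and 3.57% of those tested. The 2 members were Prkar1a and Dusp1, the second named after its values were seen.

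Genes of fatty acid oxidation and of lipid droplets were more often above lean than below it. Of the 42 tested genes of fatty acid oxidation, ketogenesis and PPARA targets, 25 were higher and 0 lower by limma (median 0.34), with 1 lower at an unadjusted p under 0.05 and 0 by the exact rank-sum test. Without libraries 19 and 20, 19 were higher and 1 lower, and 1 was lower without library 2 or 20 alone and after either rescaling. In the obese controls 35 were higher. Levels of Hadh were 147, 135, 131, 160.3 and 144 RPKM in the lean livers and ran from 202 through a median of 241 to 265 RPKM in the treated obese livers. Hadh was higher in each treated obese library than in any lean one. Hadh encodes a dehydrogenase of mitochondrial beta-oxidation and differed by 0.72 log2 units (SE 0.08, adjusted p = 5.62e-07). Vnn1 was at 18, 11.9, 11, 20.4 and 12 RPKM in the 5 lean libraries and at 35.4, 53.3 and 71.6 RPKM (lowest, median and highest) in the 6 treated obese libraries. The lean Vnn1 values all lay below the treated obese ones. Vnn1, the pantetheinase and a PPARA target, differed by 1.78 log2 units (SE 0.22, adjusted p = 4.98e-06). Of 27 tested lipid droplet genes, 11 were higher and 0 lower by limma (median 0.45), with 2 lower at an unadjusted p under 0.05 and 0 by the exact rank-sum test. Without libraries 19 and 20, 10 were higher and 3 lower; 1 was lower without library 19 or 20 alone and after upper-quartile scaling. The letters of the PPAR response element, 2 copies of AGGTCA with any 1 base between them, were on neither strand of the RefSeq promoter windows of the 23 list members that have one, and in those of 0.0481% of all genes with a window and 0.0423% of those tested. Cd36 measured 19.2, 14.7, 13.8, 18.5 and 16.5 RPKM in lean libraries 1 to 5, against a lowest of 19.1, a median of 65.2 and a highest of 97.7 RPKM with antibody on HFD. The Cd36 values of both groups overlapped. Cd36 encodes a fatty acid uptake receptor and differed by 1.69 log2 units (SE 0.29, adjusted p = 0.000181). Levels of Hsd17b11 were 97.7, 78.7, 78.6, 77.8 and 76.1 RPKM in the lean livers and ran from 118 through a median of 138 to 170.3 RPKM in the treated obese livers. Treated obese Hsd17b11 values did not overlap the lean ones and were the higher. Hsd17b11, a lipid droplet dehydrogenase, differed by 0.78 log2 units (SE 0.09, adjusted p = 1.37e-06); the obese controls differed from lean by 0.16 log2 units (SE 0.09, adjusted p = 0.182), and the antibody difference on HFD was 0.62 log2 units (SE 0.08, adjusted p = 5.36e-05).

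Several droplet genes were not called. Cidea had a mean of 3.36 ± 2.54 RPKM (SD, n = 6) in treated obese and 0.373 ± 0.249 RPKM (SD, n = 5) in lean livers, with 1.44 log2 units (SE 0.63, adjusted p = 0.0998), and it passed the test without library 23. Cidec differed by 1.19 log2 units (SE 0.70, adjusted p = 0.219), with an interval from -0.25 to 2.64. Plin4 differed by 0.86 log2 units (SE 0.47, adjusted p = 0.185), with an interval from -0.11 to 1.82. Pparg, the regulator of fat storage, differed by 0.42 log2 units (SE 0.24, adjusted p = 0.201), with an interval from -0.07 to 0.91. Mogat1 passed with 1.24 log2 units (SE 0.31, adjusted p = 0.00645), but not without libraries 19 and 20, where the adjusted p was 0.0543. Fgf21, a fasting hormone of the liver, passed with 1.15 log2 units (SE 0.35, adjusted p = 0.0209), a call lost without library 3, 5 or 19, with adjusted p up to 0.159. The Fgf21 call was also lost without libraries 19 and 20 together. Of 33 fatty acid and triglyceride synthesis genes, 12 were higher and 4 lower. Scd1 was at 1457, 949, 1033, 1288 and 1195 RPKM in the 5 lean libraries and at 354, 589.6 and 1162 RPKM (lowest, median and highest) in the 6 treated obese libraries. The Scd1 values of both groups overlapped. Scd1 encodes the main stearoyl-CoA desaturase; it differed by -0.98 log2 units (SE 0.29, adjusted p = 0.0169), a call lost with the exact rank-sum test. Fasn did not pass, with 0.48 log2 units (SE 0.19, adjusted p = 0.0701), although it passed without library 1, 5 or 23. None of 25 tested cholesterol synthesis and uptake genes was called by limma, with 3 higher and 2 lower at an unadjusted p under 0.05 and 0 called by the exact rank-sum test. That count of 0 turned on single libraries: 2 were higher without library 1, 1 was higher without library 5, 19, 20 or 23 or without libraries 19 and 20, and 1 was lower without library 3 or 21. Tm7sf2, a sterol reductase of the pathway, had an adjusted p of 0.0714.

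Some genes stood between the lean level and that of the obese controls. Cyp3a11 measured 2989, 3189, 3218, 4577 and 4556 RPKM in lean libraries 1 to 5, against a lowest of 694, a median of 883 and a highest of 1247 RPKM with antibody on HFD. The lean Cyp3a11 values all lay above the treated obese ones. Cyp3a11 encodes the major drug-metabolising P450 of mouse liver. It differed by -2.04 log2 units (SE 0.15, adjusted p = 3.96e-09) from lean, against -3.69 log2 units (SE 0.15, adjusted p = 6.58e-14) in the obese controls, and the 2 obese groups differed by 1.66 log2 units (SE 0.14, adjusted p = 7.86e-08). The obese controls ran from 231 through a median of 288 to 333 RPKM, below every treated obese library. The related Cyp3a16 and Cyp3a44 were at 3.44 ± 1.02 RPKM (SD, n = 5) and 4.0 ± 0.767 RPKM (SD, n = 5) in lean and 0.868 ± 0.315 RPKM (SD, n = 6) and 0.788 ± 0.434 RPKM (SD, n = 6) in treated obese livers, and their reads may be divided with close copies. Obese control values of Cyp3a16 and Cyp3a44 are not given here, so no place between lean and obese controls is claimed for them. Levels of Fads2 were 166, 142, 138, 148 and 142 RPKM in the lean livers and ran from 159 through a median of 193 to 258 RPKM in the treated obese livers. The Fads2 values of both groups overlapped. Fads2 encodes the delta-6 desaturase. It differed by 0.40 log2 units (SE 0.13, adjusted p = 0.0358) from lean, against 1.61 log2 units (SE 0.13, adjusted p = 2.67e-08) in the obese controls, and the 2 obese groups differed by -1.21 log2 units (SE 0.13, adjusted p = 2.72e-06). The distance of Fads2 from lean in treated obese livers was not a stable call: it was lost without library 2, 3, 4, 5, 19, 21 or 22, with adjusted p up to 0.145. The Fads2 call was also lost without libraries 19 and 20 together.

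**Figure D4:**
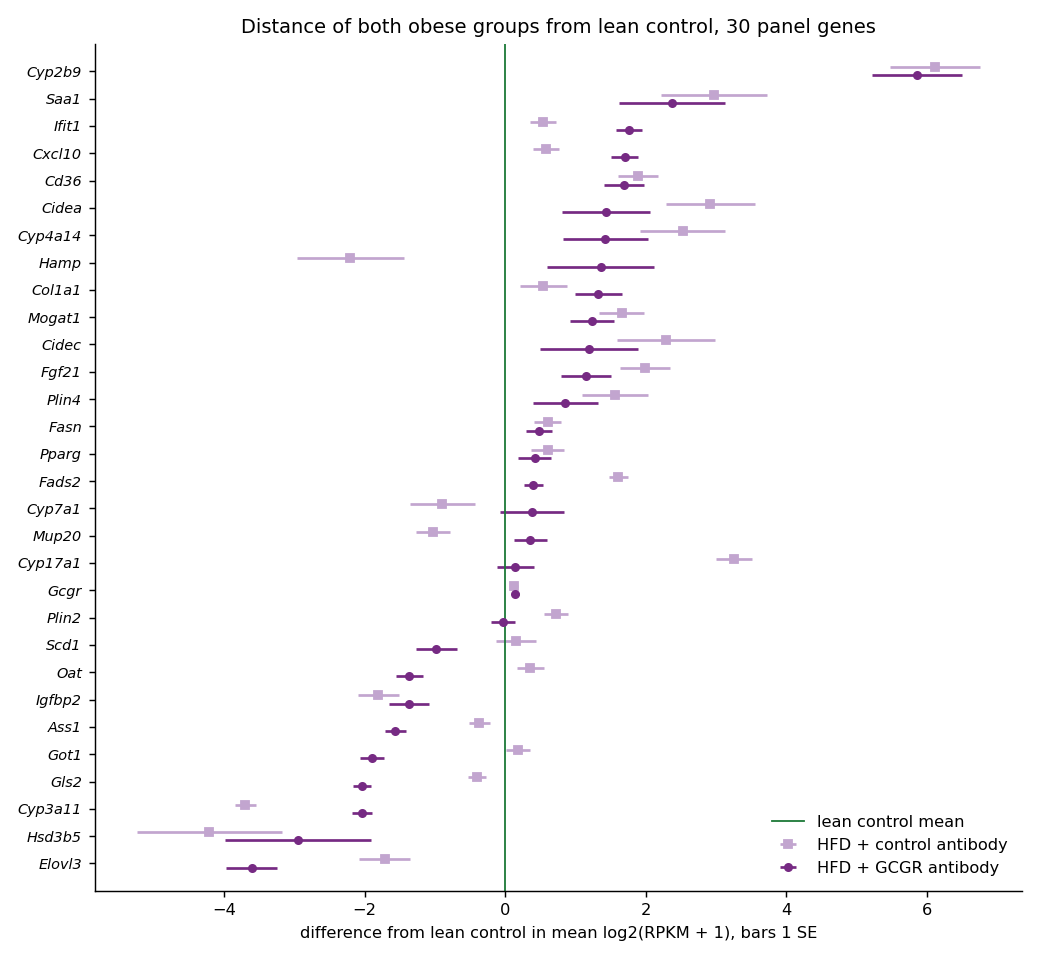
Difference from the lean control mean for 30 panel genes in obese controls (squares) and treated obese livers (circles), as mean log2(RPKM + 1) with bars of 1 SE. Cyp17a1, Plin2 and Fads2 lie to the right in the obese controls and near 0 in the treated obese livers, whereas Elovl3, Gls2, Ass1 and Got1 lie further left with the antibody.

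Some genes were not distinguishable from the lean level in these libraries, which does not show equal levels. Plin2 was at 279, 180.0, 194, 253 and 159.5 RPKM in the 5 lean libraries and at 159, 183 and 292 RPKM (lowest, median and highest) in the 6 treated obese libraries. For Plin2 the groups overlapped. Plin2 coats lipid droplets, and its difference was -0.03 log2 units (SE 0.17, adjusted p = 0.909), with an interval from -0.38 to 0.32. The obese controls were above lean by 0.72 log2 units (SE 0.17, adjusted p = 0.00326), and the treated obese livers differed from them by -0.75 log2 units (SE 0.16, adjusted p = 0.00548). Cyp17a1 measured 0.969, 1.13, 2.53, 1.02 and 1.83 RPKM in lean libraries 1 to 5, against a lowest of 0.714, a median of 1.63 and a highest of 3.93 RPKM with antibody on HFD. The Cyp17a1 values of both groups overlapped. Cyp17a1 encodes a steroid hydroxylase, and its difference was 0.15 log2 units (SE 0.26, adjusted p = 0.714), with an interval from -0.39 to 0.68. In the obese controls it stood 3.25 log2 units (SE 0.26, adjusted p = 1.32e-08) above lean. Mup20, a urinary pheromone carrier with near-identical copies, was 0.36 log2 units (SE 0.24, adjusted p = 0.282) with an interval from -0.13 to 0.85, against -1.03 log2 units (SE 0.24, adjusted p = 0.00284) in the obese controls. Cyp7a1, the rate-limiting enzyme of bile acid synthesis, was 0.38 log2 units (SE 0.46, adjusted p = 0.574) with an interval from -0.57 to 1.33, which spans more than 2-fold. Hamp, the hepcidin gene of iron control, was 1.36 log2 units (SE 0.76, adjusted p = 0.197) with an interval from -0.21 to 2.93, so its distance from lean is poorly bounded.

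Among the 22 function lists, the interferon and antigen presentation genes had the largest share of members above lean, and most of them were also above the obese controls. Interferons, through STAT transcription factors, switch on genes that block viruses and load peptides onto class I and class II molecules. Of 44 tested members, 40 were higher and 0 lower by limma, and 0 were lower at an unadjusted p under 0.05 or by the exact rank-sum test. The median difference was 0.83, and for 36 the groups did not overlap, while 6.31% of all genes tested were higher without overlap. The count was again 40 without libraries 19 and 20 and between 38 and 41 when each library was left out. In the obese controls 18 were higher. Against the obese controls, 36 were higher with the antibody on HFD. The cells that carried these transcripts were not identified. Some macrophage and T cell markers were higher too. By limma, 9 of 22 tested macrophage and monocyte markers were higher and 1 lower (5 higher without library 20 and 3 without libraries 19 and 20). By the exact rank-sum test 0 were higher and 0 lower, and 0 were without overlap between the groups. Clec4f (-0.40 log2 units), Vsig4 (-0.29) and Adgre1 (0.02) were among those not called. The macrophage and monocyte sum ranged from 139 to 250.3 RPKM in lean and from 169 to 280.2 RPKM in treated obese libraries. Of 6 tested T and NK cell markers 3 were higher (50%, against 12.8% over all genes tested): Ccl5 by 1.40 log2 units, and Cd3g and Il2rb by 0.35 each. Nkg7 (0.36), Cd4 (-0.04) and Zap70 (-0.18) were not called. The T and NK cell sums were 8.26 to 12 RPKM in lean and 11.4 to 25.2 RPKM in treated obese libraries. No marker of these 2 lists was at 0 in every library compared. Their part in the interferon result was not tested.

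Levels of Isg15 were 5.86, 6.76, 4.07, 9.54 and 6.92 RPKM in the lean livers and ran from 22.2 through a median of 24 to 29.6 RPKM in the treated obese livers. The lean Isg15 values all lay below the treated obese ones. Isg15 encodes a ubiquitin-like modifier and differed by 1.78 log2 units (SE 0.16, adjusted p = 1.1e-07); the obese controls differed by 1.12 log2 units (SE 0.16, adjusted p = 4.77e-05) and the antibody difference on HFD was 0.67 log2 units (SE 0.16, adjusted p = 0.0111). Ifit1 was at 1.08, 1.15, 1.11, 2.94 and 2.05 RPKM in the 5 lean libraries and at 4.94, 8.1 and 9.86 RPKM (lowest, median and highest) in the 6 treated obese libraries. For Ifit1 each treated obese library exceeded every lean one. Ifit1 encodes a protein that binds foreign RNA ends. It differed by 1.76 log2 units (SE 0.19, adjusted p = 5.86e-07), and the antibody difference on HFD was 1.23 log2 units (SE 0.18, adjusted p = 0.000116). Cxcl10 measured 1.08, 1.77, 0.846, 1.1 and 0.711 RPKM in lean libraries 1 to 5, against a lowest of 4.0, a median of 6.07 and a highest of 6.97 RPKM with antibody on HFD. Treated obese Cxcl10 values did not overlap the lean ones and were the higher. Cxcl10, a chemokine that attracts T cells, differed by 1.70 log2 units (SE 0.19, adjusted p = 1.15e-06), and the antibody difference on HFD was 1.12 log2 units (SE 0.18, adjusted p = 0.000362). Levels of Gbp3 were 0.744, 1.12, 1.06, 1.52 and 1.26 RPKM in the lean livers and ran from 3.6 through a median of 5.01 to 6.61 RPKM in the treated obese livers. Gbp3 was higher in each treated obese library than in any lean one. Gbp3, a guanylate-binding GTPase, differed by 1.47 log2 units (SE 0.14, adjusted p = 1.27e-07), and the antibody difference on HFD was 0.78 log2 units (SE 0.13, adjusted p = 0.00058).

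The promoters of these 4 genes are shown because 17 of the 36 list members with a RefSeq promoter window hold the letters of the interferon-stimulated response element on either strand: GAAA, any 2 bases, then GAAA. That is 47.2% of them, against 3.99% of 27025 genes with a window and 3.80% of those tested. The match is a description of letters and shows no binding. Each sequence runs 5′ to 3′ on the gene's strand, in RefSeq coordinates on GRCm38.p6, with the element in capitals (overlapping matches run together); on the other strand it reads TTTC, any 2 bases, then TTTC. Counted back from the start site, where -1 is the base before it, the printed stretches end at -17 for Isg15, -36 for Ifit1, -164 for Cxcl10 and -1 for Gbp3. Isg15 lies on the minus strand (chr4:156200835-156200924), Ifit1 on the plus strand (chr19:34640764-34640853), Cxcl10 on the minus strand (chr5:92349053-92349139) and Gbp3 on the plus strand (chr3:142559965-142560043).
Isg15: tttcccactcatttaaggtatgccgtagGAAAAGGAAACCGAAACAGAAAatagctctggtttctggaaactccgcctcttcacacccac
Ifit1: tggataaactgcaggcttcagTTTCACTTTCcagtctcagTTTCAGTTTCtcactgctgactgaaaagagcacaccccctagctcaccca
Cxcl10: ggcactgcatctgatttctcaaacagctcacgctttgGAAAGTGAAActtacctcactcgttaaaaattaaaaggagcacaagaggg
Gbp3: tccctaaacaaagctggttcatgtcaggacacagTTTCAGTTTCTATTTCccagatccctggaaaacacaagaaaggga

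**Figure D5:**
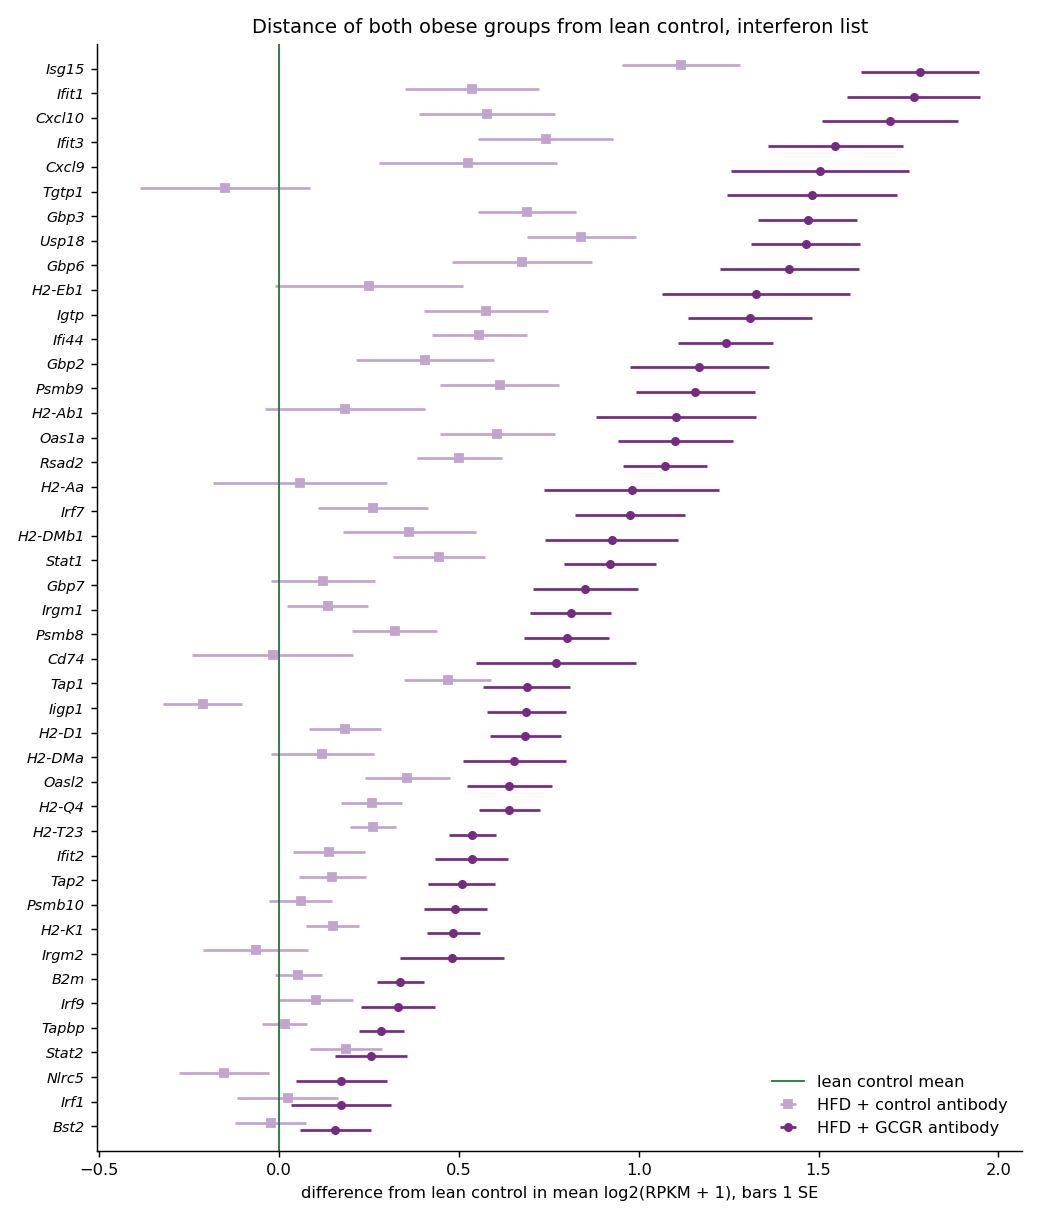
Difference from the lean control mean for the 44 tested genes of the interferon and antigen presentation list in obese controls (squares) and treated obese livers (circles), as mean log2(RPKM + 1) with bars of 1 SE. Isg15 and Ifit1 lie highest in the treated obese livers, and no gene lies below lean there.

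Drug-handling genes were more often lower than higher. Of 54 tested xenobiotic genes, 21 were lower and 7 higher (median -0.18), against 31 lower and 6 higher in the obese controls, and the antibody on HFD raised 16 and lowered 1. Of 27 bile acid genes 3 were lower (11.1%) and 4 higher (14.8%), near the 10.7% and 12.8% over all genes tested, against 10 lower and 1 higher in the obese controls; the antibody on HFD raised 8 and lowered 1. The count of lower bile acid genes was 5 without library 20, and also without libraries 19 and 20. Abcb11 was at 156, 157, 176, 179 and 187 RPKM in the 5 lean libraries and at 84.6, 109 and 126 RPKM (lowest, median and highest) in the 6 treated obese libraries. The lean Abcb11 values all lay above the treated obese ones. Abcb11 encodes the bile salt export pump, and it differed by -0.64 log2 units (SE 0.12, adjusted p = 0.000676). Cyp7b1 measured 206, 201, 203, 178 and 171 RPKM in lean libraries 1 to 5, against a lowest of 24.6, a median of 61.7 and a highest of 147 RPKM with antibody on HFD. For Cyp7b1 each treated obese library lay under every lean one. Cyp7b1 encodes an oxysterol hydroxylase of the alternative bile acid route with male-biased expression, and differed by -1.57 log2 units (SE 0.31, adjusted p = 0.000952).

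Called members of the glucose and glycogen lists were mostly above lean, but Pck1 was below it. Of 24 tested gluconeogenesis and glucose output genes 10 were higher and 2 lower. The lower ones, named after their values were seen, were Pck1, the rate-limiting enzyme of gluconeogenesis, at -1.07 log2 units (SE 0.36, adjusted p = 0.0360), and Crtc2, a CREB coactivator, at -0.28 log2 units (SE 0.09, adjusted p = 0.0351). None was lower without library 3, 5, 19 or 23, and 1 without library 4, 18 or 21 or without libraries 19 and 20. G6pc and Fbp1 of the same list were not called by limma, at -0.79 log2 units (adjusted p = 0.0878) and -0.14 log2 units (adjusted p = 0.290). Of 14 glycogen genes 4 were higher and 0 lower, also 0 lower at an unadjusted p under 0.05 and by the exact rank-sum test; 1 was lower without library 20. Levels of Pcx were 107, 95.3, 109.7, 115 and 115 RPKM in the lean livers and ran from 135 through a median of 164 to 189.5 RPKM in the treated obese livers. Treated obese Pcx values did not overlap the lean ones and were the higher. Pcx encodes pyruvate carboxylase and differed by 0.57 log2 units (SE 0.10, adjusted p = 0.00017). Gbe1 was at 26.7, 25.7, 26.4, 34.5 and 34.6 RPKM in the 5 lean libraries and at 45.2, 57.1 and 97.2 RPKM (lowest, median and highest) in the 6 treated obese libraries. Gbe1 was higher in each treated obese library than in any lean one. Gbe1 encodes the glycogen branching enzyme and differed by 1.01 log2 units (SE 0.14, adjusted p = 2.45e-05), with an antibody difference on HFD of 0.52 log2 units (SE 0.13, adjusted p = 0.0212). Clock genes were also apart: of 22, 10 were higher (45.5%) and 4 lower (18.2%), against 12.8% and 10.7% over all genes tested. Per2 measured 0.805, 1.86, 1.12, 1.58 and 3.72 RPKM in lean libraries 1 to 5, against a lowest of 5.75, a median of 7.5 and a highest of 9.05 RPKM with antibody on HFD. The lean Per2 values all lay below the treated obese ones. Per2 encodes a repressor of the clock and differed by 1.65 log2 units (SE 0.24, adjusted p = 3.82e-05). Wee1, a cell cycle kinase under clock control, was higher by 1.72 log2 units (SE 0.25, adjusted p = 4.24e-05). The labels do not give the hour of sampling, and its part in these values was not tested.

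Acute-phase and injury genes were higher in part. Of 35 acute-phase and complement genes 14 were higher and 6 lower, and 9 were higher without library 1. Levels of Serpina3n were 111, 118, 202, 134 and 156 RPKM in the lean livers and ran from 311 through a median of 398 to 577 RPKM in the treated obese livers. For Serpina3n each treated obese library exceeded every lean one. Serpina3n, an acute-phase protease inhibitor, differed by 1.51 log2 units (SE 0.24, adjusted p = 7.74e-05). Saa1, serum amyloid A, differed by 2.38 log2 units (SE 0.75, adjusted p = 0.0255), but lean library 3 stood at 2402 RPKM and the call was lost without library 1, 2, 4 or 22, with adjusted p up to 0.209. Of 32 steatohepatitis and injury genes 15 were higher and 1 lower (10 higher without libraries 19 and 20). Tmsb10 was at 11.2, 11.2, 9.24, 11.2 and 10.8 RPKM in the 5 lean libraries and at 15.1, 34 and 60.6 RPKM (lowest, median and highest) in the 6 treated obese libraries. Treated obese Tmsb10 values did not overlap the lean ones and were the higher. Tmsb10 encodes thymosin beta 10, which binds actin monomers, and differed by 1.55 log2 units (SE 0.26, adjusted p = 0.000164). Of 30 secreted factors 11 were higher (36.7%) and 2 lower (6.67%), and 7 were higher without library 3. Lect2 measured 80, 85.5, 64.2, 65.5 and 73.1 RPKM in lean libraries 1 to 5, against a lowest of 139, a median of 152 and a highest of 182 RPKM with antibody on HFD. Lect2 was higher in each treated obese library than in any lean one. Lect2, a hepatokine that rises with overnutrition, differed by 1.05 log2 units (SE 0.11, adjusted p = 4.1e-07). Of 32 ATF4 and endoplasmic reticulum stress genes 7 were higher (21.9%) and 1 lower (3.13%), with 4 higher without library 3, 4 or 5, 3 without library 19 and 2 without libraries 19 and 20. Asns, asparagine synthetase and an ATF4 target, was the lower one, at -1.53 log2 units (SE 0.30, adjusted p = 0.000716).

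Markers of matrix-producing cells were highest in libraries 19 and 20. Of 24 stellate cell and matrix markers 13 were higher (54.2%) and 1 lower (4.17%), against 12.8% and 10.7% over all genes tested, and 7 were higher without those libraries. Their sum was 138.6 to 149 RPKM in the lean libraries and 145 to 312 RPKM in the treated obese ones, with library 19 at 312 and library 20 at 296 RPKM. Levels of Col1a1 were 1.25, 1.43, 0.853, 1.23 and 1.56 RPKM in the lean livers and ran from 1.32 through a median of 4.32 to 12.2 RPKM in the treated obese livers. For Col1a1 the groups overlapped. Col1a1, the main chain of type I collagen, differed by 1.33 log2 units (SE 0.34, adjusted p = 0.00637), and the adjusted p was 0.0503 without those libraries. Of 20 endothelial markers 2 were higher (10%), near the 12.8% over all genes tested. Of 4 tested adipocyte markers 2 were higher, Cfd among them, and 1 was higher without libraries 19 and 20. The other was Fabp4 (1.04 log2 units), while Lipe (0.18) and Adrb3 (0.30) were not called. Only 4 of the 8 listed adipocyte markers passed the filter for testing. Adipocyte sums were 16.5 to 22.3 RPKM in lean and 32.6 to 66.3 RPKM in treated obese libraries. These sums include Cfd itself, so they are no separate measure of adipocytes beside the Cfd result. The part of adipocyte and matrix cells in the Cfd and Col1a1 results was not tested.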

How the data were processed

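Gene RPKM values were deposited by the authors in 1 table of 24475 genes and 23 libraries. Per the labels' protocols, strand-specific mRNA libraries were made with a KAPA kit and sequenced as single reads of 33 cycles. The submitters' processing notes name the GRCm38 build, FastQC and bcl2fastq 2.17. Which aligner, counter, strand setting and annotation were used is not given in the sources used here. RPKM hold no read counts, so count models were not used.

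Genes with at least 0.5 RPKM in at least 5 libraries were kept, and limma 3.58.1 (R 4.3.3) was fitted to log2(RPKM + 1), with 4 group means, a mean-variance trend, two-sided tests and Benjamini-Hochberg adjustment over 11939 genes. The steps were tested on simulated data. A gene counted as called at an adjusted p under 0.05. The 36 gene lists, the 30 panel genes and the members were chosen with earlier results of these data known. Named genes were the 10 largest increases and 10 largest decreases without overlap between libraries and with a mean of at least 1 RPKM in the higher group (unnamed predicted genes passed over), the 2 members of lowest adjusted p in each of 22 function lists, the panel, the 5 largest calls shared with and the 5 opposite to the comparison that shares no library, and called cell type or RNA quality genes. Some genes that this rule names are not reported here. Promoter windows and coordinates came from RefSeq tables of GRCm38.p6. Alternatives were a pseudocount of 0.1, other filters, 2 rescalings, a fit on 2 groups, no trend, an exact rank-sum test, leaving out each library, and leaving out libraries 19 and 20 together. Of the 24475 genes, 193 held the same values as another gene, 13 of them among those tested and none among the named genes.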

Additional observations from a re-analysis of the deposited data

Results flagged for a closer look

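In 19 of 254 groups of named-gene values (7.48%), 1 library stood far from the rest of its group by Dixon's test, which chance alone does in about 1 in 20 groups. Library 20 was the one that stood apart most often, for 5 genes among the treated obese libraries: Ccl2 at 3.50 RPKM, Gbe1 at 97.2 RPKM, Herpud1 at 512 RPKM, Plin4 at 31.5 RPKM and Prkar1a at 33.7 RPKM, each the highest of the 6. Library 19 was the highest for Cideb at 286 RPKM and Cyp17a1 at 3.93 RPKM, and the lowest for Cyp7a1 at 26.6 RPKM. Library 22 held the highest Lcn2 at 514 RPKM, and library 23 the highest Lect2 at 182 RPKM.

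Among the lean libraries, library 1 was the highest for Fgf21 at 3.54 RPKM, Gcgr at 117 RPKM, Hsd17b11 at 97.7 RPKM and Tm7sf2 at 135 RPKM. Library 3 was the highest for Lcn2 at 53.1 RPKM and Saa1 at 2402 RPKM, and the lowest for Tmsb10 at 9.24 RPKM. Library 5 was the highest for Ass1 at 2500 RPKM and Gls2 at 179 RPKM.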

How the results depend on the processing

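No paired analysis was possible because the sample numbers 1 to 23 are not shared between groups. The exact rank-sum test, which can reach no p below 0.004329 here, called 753 genes higher and 629 lower, with 11 higher genes of fatty acid oxidation and 9 lower male-biased genes. Upper-quartile scaling gave 2021 lower genes, and a pseudocount of 0.1 gave 256 genes at least 2-fold higher and 175 lower. Having no filter on low values gave 16842 genes bounded within 1.5-fold of RPKM + 1. The causes were not tested, except that the last setting tested more genes. Leaving out each library gave 1173 to 1754 genes higher, 950 to 1487 lower, 121 to 162 at least 2-fold higher, 79 to 93 at least 2-fold lower and 9636 to 9928 bounded. It gave 22 to 28 higher fatty acid oxidation genes, 24 to 28 lower amino acid breakdown genes, 19 to 20 lower xenobiotic genes, 12 to 16 lower male-biased genes and 38 to 41 higher interferon genes. Among 114 called named genes, 19 lost the call without 1 library and 27 without libraries 19 and 20. Genes near the lean level changed sign: Cyp17a1 ran from -0.029 without library 19 to 0.28 log2 units without library 3 and was -0.095 without libraries 19 and 20, and Plin2 ran from -0.14 without library 19 to 0.072 without library 1. RPKM give no counting error, so precision rests on the spread between libraries, which the main fit took from all 23. The group means compared rest on 5 and 6 libraries.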
